A study of Arabidopsis thaliana with 12 samples.

Results

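The SCL, RS and RS2Z genes are 10 genes of Arabidopsis thaliana that encode SR-type splicing factors found in plants and with no direct counterpart among the animal SR proteins. They were taken by gene identifier. They comprise SCL28 (AT5G18810), SCL30 (AT3G55460), SCL30A (AT3G13570), SCL33 (AT1G55310), RS31 (AT3G61860), RS31A (AT2G46610), RS40 (AT4G25500), RS41 (AT5G52040), RS2Z32 (AT3G53500) and RS2Z33 (AT2G37340). All 10 were among the 25566 genes of the expression table, and 4 of them had a row in the m6A peak table, with 4 of its 6437 rows. SCL28 here is the SC35-like splicing factor, not the GRAS transcription factor SCARECROW-LIKE 28, which shares the abbreviation.

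The study set a mettl16 mutant in the Col-0 background against Col-0 plants in order to follow N6-methyladenosine (m6A), a methyl mark on mRNA, around the floral transition. Both genotypes were sampled as the aerial part of 3-week-old plants raised at 23 °C in days of 16 h light and 8 h dark, with no further treatment. Each genotype gave 3 RNA-seq libraries from unenriched (input) RNA and 3 libraries from RNA bound by an m6A antibody, 12 samples in all. The labels do not name the mutant allele or say how many plants made up a sample. METTL16 is an m6A methyltransferase of animals that modifies the U6 spliceosomal RNA, and FIO1 is its Arabidopsis homologue. That the mutation lies in FIO1 (AT2G21070) is general knowledge and not stated by the labels. Its transcript was at 1.98, 2.12 and 2.31 FPKM in Col-0, against 0.292, 0.148 and 0.197 FPKM in mettl16.

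SR proteins bind pre-mRNA through an RNA-recognition motif and contact other splicing factors through a tail rich in arginine and serine, and so help to mark exons and splice sites. SCL proteins resemble the animal factor SC35 but carry a charged extension at the N-terminus. RS proteins have a pair of RNA-recognition motifs, and RS2Z proteins have a pair of zinc knuckles behind a single motif. Many SR genes are themselves alternatively spliced, often into transcripts that nonsense-mediated decay removes, and several of these proteins regulate their own transcripts. The gene-level values used here add up the transcripts of a gene and cannot show such shifts.

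Transcript levels were deposited as FPKM, fragments scaled to the length of the transcript and to the mapped fragments of the library, so that levels can be compared between genes. In Col-0 the order ran from RS41 (56.8 ± 1.75 FPKM, SD, n = 3) through RS2Z33 (47.6 ± 2.82), SCL30 (44.0 ± 1.66), RS2Z32 (40.7 ± 0.709), RS31 (34.7 ± 0.442), SCL33 (26.8 ± 1.23), SCL30A (24.6 ± 0.627) and RS40 (18.3 ± 0.622) to RS31A (4.56 ± 0.646) and SCL28 (0.794 ± 0.130). Each neighbour in this order was separated from the next by values that did not overlap, except RS2Z33 and SCL30. In mettl16 SCL30A stood at 37.6 ± 1.55 FPKM and SCL33 at 33.9 ± 0.120, both now above RS31 at 31.4 ± 1.20. RS2Z32 (52.2 ± 0.440) and RS2Z33 (52.4 ± 1.22) overlapped in mettl16, and the other neighbours did not. By mean level over the 6 libraries, RS41 lay at the 90.6th percentile of the tested genes, RS31A at the 33.8th and SCL28 at the 6.34th.

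**Figure D1:**
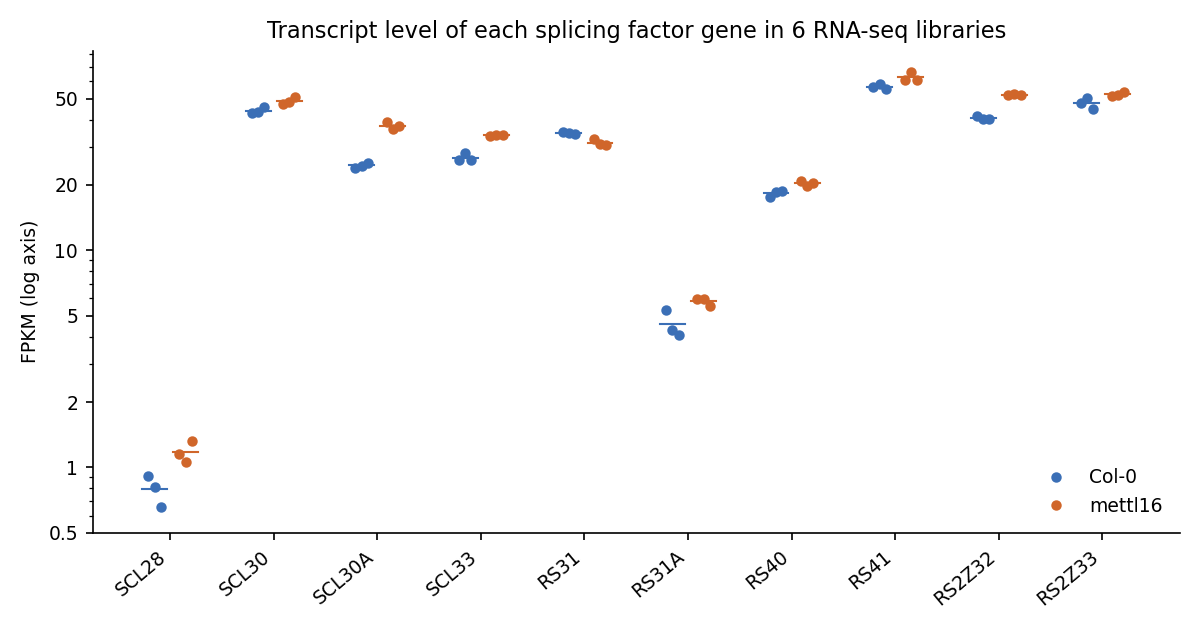
FPKM (log axis) of each gene in the 3 Col-0 libraries (blue) and 3 mettl16 libraries (orange), with the group means as lines. The mettl16 points lie above the Col-0 points in 9 genes and below them in RS31, and SCL28 and RS31A are far below the other 8 genes.

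The summed level of the 10 genes was 298, 303 and 296 FPKM in Col-0, against 345, 347 and 346 FPKM in mettl16, or 15.8% more. The 4 SCL genes added up to 96.1 ± 2.17 FPKM in Col-0 and 121 ± 2.12 FPKM in mettl16, the 2 RS2Z genes to 88.3 ± 2.92 and 104.6 ± 1.04 FPKM, and the 4 RS genes to 114 ± 1.78 and 120.1 ± 2.61 FPKM (SD, n = 3 each). The makeup of the family shifted with it. The SCL genes held between 31.5% and 33.1% of the sum in Col-0 and between 34.4% and 35.7% in mettl16, while the RS genes held between 38.1% and 38.6% in Col-0 and between 33.9% and 35.4% in mettl16. RS31 alone went from between 11.4% and 11.8% of the sum to between 8.79% and 9.49%, and SCL30A from between 8.06% and 8.55% to between 10.4% and 11.3%. These sums and shares are descriptions of the libraries and were not tested.

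The expression comparison asked how each gene differed between mettl16 and Col-0. In the limma fit on log2(FPKM + 1) over 19505 genes, with Benjamini-Hochberg adjusted p under 0.05 as the call, 9 of the 10 genes were higher in mettl16 and 1, RS31, was lower. In the background 41.1% of all tested genes were called higher and 23.4% lower, 64.5% in all. The 3 mettl16 values lay wholly above those of Col-0 in the same 9 genes and wholly below them in RS31, which held for 43.9% and 25.9% of all tested genes, 69.8% in all. The median log2 change of the 10 genes was 0.21, against 0.08 for all tested genes, and they ran from -0.14 to 0.59. After centring each library on its median or after quantile normalization, 4 of the 10 were still called higher (SCL30A, SCL33, RS31A and RS2Z32), RS31 was called lower, and no gene changed sign. In the background 33.4% of genes were higher and 30.2% lower after centring, and 31.2% and 32.1% after quantile normalization.

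SCL30A, an SC35-like factor known for a role in seed germination, rose the most. It stood at 24.0, 24.5 and 25.3 FPKM in Col-0, against 39.15, 36.0 and 37.6 FPKM in mettl16. All 3 mettl16 libraries were well above all 3 Col-0 libraries. The log2 change was 0.59 (SE 0.0391, limma adjusted p = 7.60e-07), a ratio of mean FPKM of 1.53, at the 89.7th percentile of the changes of all tested genes.

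SCL33, the close relative of SCL30A, whose protein binds its own pre-mRNA, was at 26.0, 28.2 and 26.1 FPKM in Col-0, against 33.7, 33.9 and 34.0 FPKM in mettl16. The mettl16 libraries were nearly equal to one another and lay above each Col-0 library. SCL33 rose by 0.33 (SE 0.0380, limma adjusted p = 3.97e-05).

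SCL30 had 42.8, 43.25 and 45.9 FPKM in Col-0 and 47.0, 48.3 and 50.7 FPKM in mettl16. The groups were close and did not overlap. Its log2 change of 0.14 (SE 0.0391, limma adjusted p = 0.00919) lost its call after median centring (0.134) and quantile normalization (0.247), within a range of 0.00333 to 0.247 over the settings run.

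SCL28 was the least abundant of the 10, at 0.913, 0.814 and 0.655 FPKM in Col-0 and 1.15, 1.06 and 1.32 FPKM in mettl16. The highest Col-0 library was below the lowest mettl16 library. Its log2 change was 0.28 (SE 0.0894, limma adjusted p = 0.0198), and at such levels the added pseudocount of 1 shrinks a change: the ratio of mean FPKM was 1.48, near that of SCL30A. The call was lost without Col-0 replicate 3 (adjusted p = 0.0760) or mettl16 replicate 3 (0.0706), and after median centring (0.0676) and quantile normalization (0.239), within a range of 0.0111 to 0.239 over the settings run.

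Among the RS genes, RS31 was the gene that fell. RS31 encodes a splicing factor whose own pre-mRNA is spliced differently in light and dark. It was at 35.2, 34.55 and 34.4 FPKM in Col-0, against 32.7, 30.9 and 30.5 FPKM in mettl16, with every mettl16 library below every Col-0 library. The log2 change was -0.14 (SE 0.0358, limma adjusted p = 0.00581). It was called lower under each of the 13 alternative settings, with log2 changes between -0.22 and -0.11 and adjusted p between 0.000365 and 0.0257.

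RS31A, its low-abundance relative, was at 5.29, 4.28 and 4.09 FPKM in Col-0 and 5.98, 5.94 and 5.56 FPKM in mettl16. Col-0 replicate 1 was the highest of its group and came close to the mettl16 values. RS31A rose by 0.30 (SE 0.0822, limma adjusted p = 0.00898). Its gene overlaps AT2G46600 on the opposite strand by 35 bases, and that neighbour had a mean of 127 FPKM in Col-0 and 96.5 FPKM in mettl16. RS40 and RS2Z33 also overlap an opposite-strand neighbour, by 42 and 41 bases. Those neighbours had means of 0.161 and 3.14 FPKM in Col-0 and 0.144 and 2.53 FPKM in mettl16.

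RS40 and RS41 encode proteins that bind microRNA-processing factors in nuclear dicing bodies. RS40 was at 17.65, 18.5 and 18.9 FPKM in Col-0 and 20.8, 19.8 and 20.5 FPKM in mettl16. RS41, the most abundant of the 10, was at 56.6, 58.6 and 55.15 FPKM in Col-0 and 60.85, 66.0 and 60.9 FPKM in mettl16. In both genes the groups were close without overlapping. Both had a log2 change of 0.14 (SE 0.0400 and 0.0394, limma adjusted p = 0.0111 and 0.0124), and both calls were lost after median centring (0.155 and 0.159) and quantile normalization (0.0907 and 0.374), within ranges of 0.00371 to 0.155 for RS40 and 0.00474 to 0.374 for RS41.

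Of the RS2Z genes, RS2Z32 was at 41.5, 40.3 and 40.3 FPKM in Col-0 and 52.1, 52.7 and 51.8 FPKM in mettl16. Replicates were tight and the groups far apart for their spread. RS2Z32 rose by 0.35 (SE 0.0289, limma adjusted p = 3.65e-06).

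RS2Z33, which alters plant development and the splicing of other SR genes when overexpressed, was at 47.7, 50.4 and 44.7 FPKM in Col-0 and 51.4, 52.1 and 53.8 FPKM in mettl16. The highest Col-0 library came within about 1 FPKM of the lowest mettl16 library. Its log2 change of 0.14 (SE 0.0432, limma adjusted p = 0.0183) did not hold in 5 of the 13 alternatives: the call was lost without Col-0 replicate 3 (adjusted p = 0.0601) or mettl16 replicate 3 (0.0633), with a plain prior variance (0.0528), and after median centring (0.213) and quantile normalization (0.224), within a range of 0.00410 to 0.224.

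**Figure D2:**
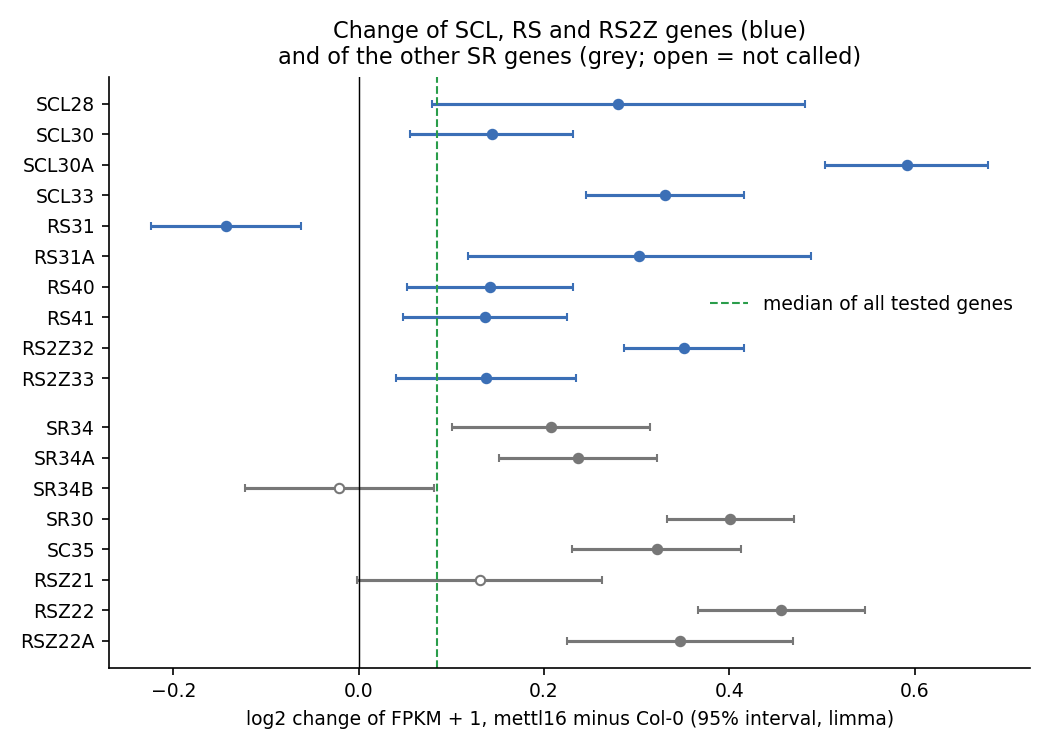
Log2 change of FPKM + 1 (mettl16 minus Col-0) with 95% limma intervals for the 10 genes (blue) and the other 8 SR genes (grey, open where not called), with the median of all tested genes, 0.08, as a dashed line. SCL30A lies farthest right at 0.59 and RS31 is the only blue point left of 0, while SCL28, SCL30, RS40, RS41 and RS2Z33 have intervals that include the dashed line.

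Of the 10 genes, 8 form 4 pairs of close relatives, and how reads matching both members of a pair were assigned is not stated. The pairs were compared within each library as the log2 difference between relatives, with the exact permutation test, two-sided, adjusted over the 4 pairs; with 3 libraries against 3 the smallest p it allows is 0.1. SCL30A was at 0.924, 0.871 and 0.968 of SCL33 in Col-0 and at 1.16, 1.06 and 1.11 of it in mettl16, so that the order of the pair turned over in every library. The change of SCL30A exceeded that of SCL33 by 0.26 (exact permutation p = 0.1, adjusted 0.133). RS31A was between 0.119 and 0.150 of RS31 in Col-0 and between 0.183 and 0.192 in mettl16, a difference in change of 0.45 (exact permutation p = 0.1, adjusted 0.133). This pair moved in opposite directions.

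RS2Z32 was between 0.800 and 0.901 of RS2Z33 in Col-0 and between 0.963 and 1.01 of it in mettl16, a difference of 0.21 (exact permutation p = 0.1, adjusted 0.133). The RS40 to RS41 ratio overlapped, between 0.312 and 0.342 in Col-0 and between 0.300 and 0.341 in mettl16, and the changes of that pair differed by 0.01 (exact permutation p = 1). The groups thus did not overlap in 3 of the 4 pairs, and none reached 0.05 in a design that cannot. No share over other gene pairs was computed. Among single tested genes the groups did not overlap in 69.8%.

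**Figure D3:**
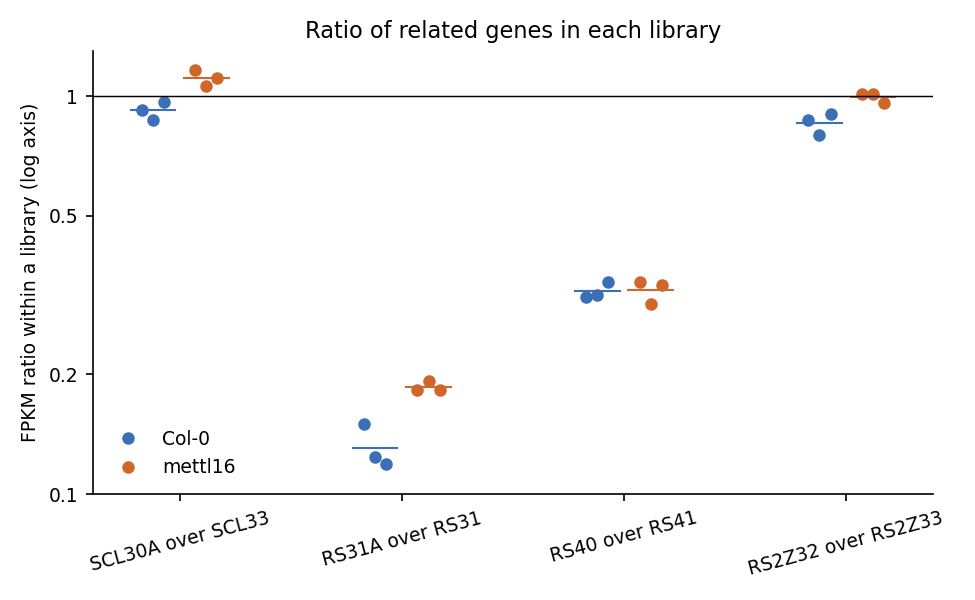
FPKM of one gene over that of its close relative within each library (log axis), Col-0 in blue and mettl16 in orange, with geometric means as lines. The ratio is higher in every mettl16 library for SCL30A over SCL33, RS31A over RS31 and RS2Z32 over RS2Z33, and overlaps for RS40 over RS41.

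The m6A comparison asked whether methylated sites of these genes differed. In the authors' deposited table each of SCL30A, RS40, RS41 and SCL28 had 1 peak row, all annotated to the 3' UTR, as were 5080 of the 6437 rows. The other 6 genes had no row. The table held 147 rows (2.28%) with an absolute log2 fold change under 0.1, so it appears to lack most small differences, and a gene without a row may be unmethylated or may not have passed the authors' selection. Of the tested genes, 29.1% had a row.

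The 4 peaks lie on build TAIR10. The SCL30A peak is at chr3:4429298-4430194 on the minus strand, 897 bases in 3 blocks, and the RS40 peak at chr4:13026655-13027484 on the plus strand, 830 bases in 2 blocks. The RS41 peak is at chr5:21132841-21133621 on the plus strand, 781 bases in 2 blocks, and the SCL28 peak at chr5:6268718-6269193 on the minus strand, 476 bases in 2 blocks. Each peak ended exactly at the gene's annotated 3' end, as did 67.1% of the 3' UTR peaks whose gene is in the expression table. Each was also split, by gaps of 80 to 153 bases, as were 54.5% of the 3' UTR peaks. The block at the very 3' end was 531 bases long in SCL30A, 275 in RS40, 337 in RS41 and 214 in SCL28. RS40 and RS41 had alike layouts, with 1 gap of 80 and 93 bases that began 275 and 337 bases from the 3' end.

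**Figure D4:**
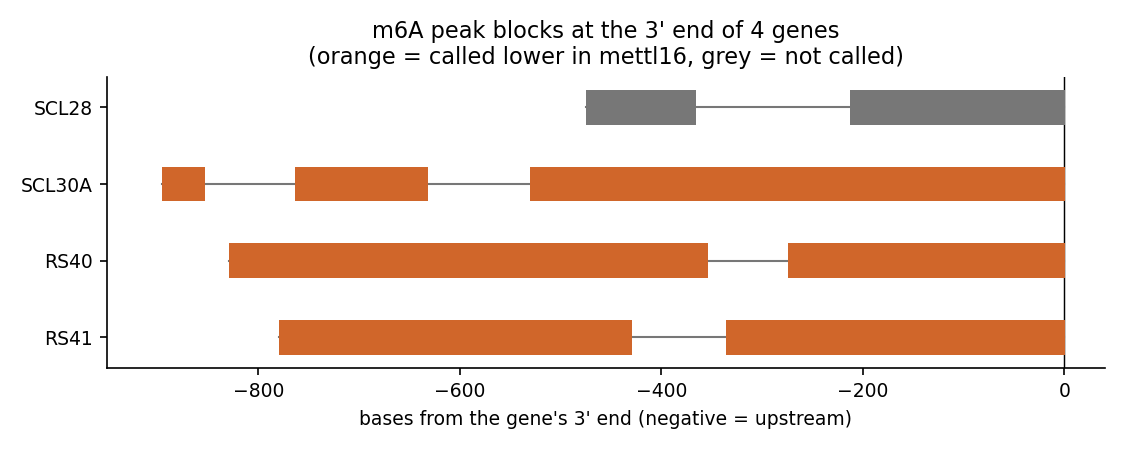
Blocks of the 4 peaks drawn as bases from the gene's 3' end, with gaps as thin lines, orange for peaks called lower in mettl16 and grey for the one not called. Every peak starts at the 3' end, and SCL30A has the longest terminal block, 531 bases.

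Of the 4 peaks, 3 were lower in mettl16 at the authors' FDR under 0.05, none was higher and 1 was not called. In the background 51.6% of all rows were lower and 17.6% higher, and among 3' UTR rows 51.4% and 20.2%. In the authors' deposited table RS41 had a log2 fold change of -0.32 (FDR 3.16e-27), SCL30A -0.19 (FDR 6.61e-06) and RS40 -0.18 (FDR 0.000224). The median over all rows of the authors' deposited table was -0.23, and over its 3' UTR rows -0.20. RS41 lay at the 28.5th percentile of 3' UTR peaks, SCL30A at the 54.3rd and RS40 at the 54.9th. Measured from the median of all rows, the folds were -0.09 for RS41 and 0.04 for both SCL30A and RS40. In the authors' deposited table SCL28 had 0.40 (FDR 0.353), at a transcript level below 2 FPKM in each library.

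**Figure D5:**
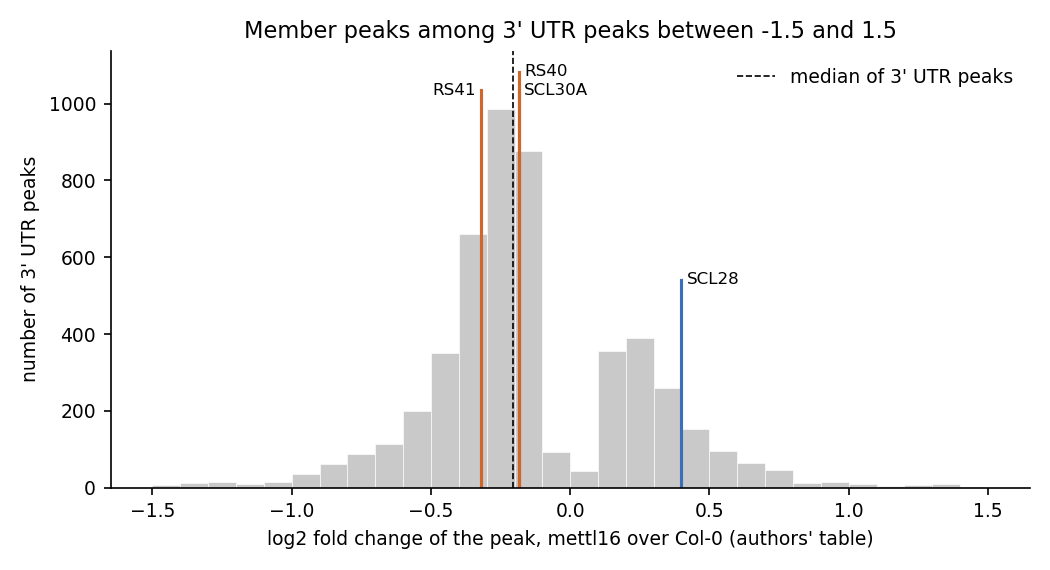
Number of 3' UTR peaks by log2 fold change (mettl16 over Col-0, authors' deposited table, between -1.5 and 1.5), with the peaks of RS41, SCL30A, RS40 and SCL28 as vertical lines of arbitrary height and the median of -0.20 dashed. The first 3 lie in the main mode left of 0, where few rows lie near 0, and SCL28 lies at 0.40 in the smaller mode to its right.

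The transcripts of the 3 genes with a lower peak were each higher in mettl16, SCL30A by 0.59 and RS40 and RS41 by 0.14 on the log2(FPKM + 1) scale. The calls of RS40 and RS41 were lost after median centring and quantile normalization. SCL28, whose peak was not called, also rose, by 0.28. In all, 9 of the 10 genes were higher, against 41.1% of all tested genes. RS31, the transcript that fell, had no row in the peak table. Nor did SCL30, SCL33, RS31A, RS2Z32 and RS2Z33, which rose. Whether the fold of a peak in the authors' deposited table is set against the input RNA is not stated, so the peak and transcript values are given side by side only.

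The remaining SR genes of Arabidopsis, of the SR, RSZ and SC35 groups, number 8. Of these, 6 were higher in mettl16, none was lower and 2 were not called (SR34B, adjusted p = 0.706, and RSZ21, 0.0766), with a median log2 change of 0.28. RSZ22, a zinc-knuckle SR protein, rose from 35.9 ± 1.73 to 49.6 ± 1.30 FPKM (log2 change 0.46, limma adjusted p = 5.92e-06) and SR30 from 32.4 ± 0.340 to 43.1 ± 0.835 FPKM (0.40, adjusted p = 2.09e-06). Over all 18 SR genes, 15 were higher and 1, RS31, was lower, against 41.1% and 23.4% of all tested genes. After median centring or quantile normalization 10 were higher, against 33.4% and 31.2% of all tested genes. In the peak table the 8 genes had 2 rows, of which SR34A was higher (0.10, FDR 0.0132, in the authors' deposited table) and SR30 was not called (0.16, FDR 0.115).

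SR proteins work when phosphorylated and imported into the nucleus. A list of 11 kinase and import genes had 4 higher and 2 lower members, against 41.1% and 23.4% of all tested genes. Its median log2 change was 0.06, below that of all tested genes, and 6 of its kinases carry no symbol in the RefSeq table. The protein kinase gene AT5G22840 rose from 4.70 ± 0.304 to 6.21 ± 0.0713 FPKM (log2 change 0.34, limma adjusted p = 0.000580), and AFC1, a LAMMER-type kinase of the kind that phosphorylates SR proteins, rose by 0.20 (adjusted p = 0.0118). With either recentring 1 member of this list was called higher, against 33.4% of all tested genes after median centring and 31.2% after quantile normalization. With FPKM rescaled to TPM 1 was called lower. Of the 5 peak rows of this list 2 were lower and 2 higher, against 51.6% and 17.6% of all rows.

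Among 12 splice-site factors and other partners of SR proteins, cyclophilins included, 7 were higher and none lower, against 41.1% and 23.4% of all tested genes. Their median log2 change was 0.22, against 0.08 for all tested genes. With either recentring 5 were called higher, against 33.4% of all tested genes after median centring and 31.2% after quantile normalization. SR45, an SR-like protein that bridges factors at both splice sites, rose from 21.6 ± 1.03 to 31.6 ± 1.16 FPKM (log2 change 0.53, limma adjusted p = 4.10e-06), and SR45A rose by 0.40 (adjusted p = 5.31e-05). Of their 8 peak rows, in 7 genes, 7 were lower and none was higher, where 51.6% of all rows were lower and 17.6% higher. A row called lower lay mostly beyond its gene's annotated end and overlapped the row of the same gene that was not called. The list of 7 nonsense-mediated decay and exon junction genes had 4 higher and none lower, against 41.1% and 23.4% of all tested genes. Its median log2 change was 0.11, near the 0.08 of all tested genes. UPF3, a decay factor, was at 0.25 (limma adjusted p = 0.00124) and MAGO, of the exon junction complex, at 0.24 (adjusted p = 0.00146). After median centring 2 members of this list were called lower and after quantile normalization 1, against 30.2% and 32.1% of all tested genes. Of the 4 peak rows of this list 3 were lower and 1 was higher, against 51.6% and 17.6% of all rows.

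The sums of flower, dividing-cell and leaf marker genes also differed between the genotypes. The 8 flower markers summed to between 1.70 and 1.90 FPKM in Col-0, against 66.2 to 69.2 FPKM in mettl16, and 1 of them, AT5G07230, was listed at 0 in every Col-0 library. The 7 that entered the test did so through their mettl16 values alone, so their calls are not counted. The 5 dividing-cell markers summed to between 64.4 and 70.0 FPKM in Col-0 and between 83.8 and 86.9 FPKM in mettl16. All 5 were called higher, and in 4 of them the mettl16 values lay wholly above those of Col-0. In the background 41.1% of all tested genes were called higher and 23.4% lower. The mettl16 values lay wholly above in 43.9% of them, and the groups did not overlap in 69.8%. The 4 leaf markers summed to between 33780 and 35090 FPKM in Col-0, against 30820 to 32870 FPKM in mettl16, with 2 called lower, 1 called higher although its groups overlapped, and 1 not called. Of 6 root markers 4 were in the table, none was above 0.332 FPKM in any library, and 2 of them were at 0 in every Col-0 library. The part of these differences in the changes of the splicing factor genes was not tested. In such bulk samples fewer cells of a type and less RNA per cell cannot be told apart.

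Deposited FPKM summed to between 699031 and 718824 per library, and counts of fragments are not kept in them. Steps between the lowest values put Col-0 replicate 1 at roughly 0.639 of the deepest library, with the other libraries at 0.834 to 1. Pearson's r of log2 values over the tested genes ran from 0.994 to 0.996 inside each genotype and from 0.957 to 0.959 across genotypes. The labels call the samples of a group biological replicates without saying whether they were grown apart, so the p-values measure the spread between these samples.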

How the data were processed

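The 6 RNA-seq libraries were used as FPKM values that the authors deposited per gene; the m6A comparison was used as the log2 fold change, the p-value and the log10 FDR (a score below 0) of each peak that the authors deposited, with the peak p-value. Build TAIR10 and, without versions or roles, edgeR, HOMER, StringTie, HISAT2, fastp and cutadapt are listed in the submitters' processing notes; the peak caller and whether counting used strand are not stated there. Genes averaging 0.5 FPKM or more (19505, all 10 members among them) were tested on log2(FPKM + 1) with limma 3.58.1 in R 4.3.3. The fit used a trended, robust prior variance and was two-sided, with Benjamini-Hochberg adjustment over all tested genes. Such fold changes understate those of low genes. The fit was also run on simulated data in which few genes changed, unlike here, so that run does not bear on the calls. Tables and figures used Python 3.11.15, NumPy 2.4.6, pandas 2.3.3 and matplotlib 3.10.9. RefSeq symbols (TAIR10.1) matched all 10 genes and 95.4% of identifiers. All members are named, and of each companion list the 2 called genes with the largest change; marker lists are given as summed FPKM, with those at 0. The uncalled SR genes SR34B and RSZ21, and SR34A and SR30 for their peak rows, were named after their values were seen. Members and lists were chosen with earlier results of these data known. A lone unlabelled number in a further sheet was not used. Alternatives were pseudocount 0.1, no filter, median centring, quantile normalization, TPM, a plain prior, a replicate block and each library left out, and for peaks FDR 0.01, centring and merging of overlapping rows.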

Additional observations from a re-analysis of the deposited data

How the results depend on the processing

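RS31 stayed lower, and SCL30A, SCL33, RS31A and RS2Z32 higher, with a call under all 13 alternatives. The count of members higher was 9 and became 4 with median centring, 4 with quantile normalization, 8 with a plain prior variance, and between 7 and 9 with 1 library left out (7 without Col-0 replicate 3 or mettl16 replicate 3). Median centring left log2 changes of 0.21 for SCL28, 0.0727 for SCL30, 0.0708 for RS40, 0.0656 for RS41 and 0.0670 for RS2Z33, and quantile normalization 0.13, 0.0580, 0.0867, 0.0429 and 0.0628, none called. RS2Z33 at 0.14 was not called with a plain prior variance. With 1 library left out SCL28 lay between 0.22 and 0.33 and RS2Z33 between 0.0945 and 0.18. The kinase and import list went from 4 higher to 1 with centring and 1 with quantile normalization, and from 2 lower to 1 with TPM, a plain prior variance or the replicate block, and between 1 and 2 with 1 library left out; the decay and exon junction list went from 0 lower to 2 with centring and 1 with quantile normalization. The list of splice-site factors and partners went from 7 higher to 5 with either. Of all tested genes 33.4% were higher and 30.2% lower after median centring, and 31.2% and 32.1% after quantile normalization. The RS40 to RS41 difference changed sign, between -0.0285 and 0.0625, with 1 library left out. With the median of all rows subtracted from the folds, 1 called member peak had a fold below 0 and 2 above it, a change of sign only, since the authors' FDR refers to 0 and no test was made against the median; the other peak settings left 3 lower and 0 higher. Deviations from the group means were nearly uncorrelated between samples of the same replicate number (r -0.0823, 0.00866 and 0.00173). Such values cannot show whether these samples were grown or handled together. The replicate block left 9 members higher and 1 lower. The causes of these changes were not tested. FPKM keeps no fragment counts, so the counting error of SCL28 is unknown.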
